A study of Mus musculus with 16 samples.

Results

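The 9 genes described here encode receptors of the CD28 family and partner molecules that set the strength of T cell activation: *Ctla4*, *Cd28*, *Icos*, *Btla*, *Pdcd1*, *Lag3*, *Cd5*, *Cd6* and *Cblb*. Their transcripts were followed in DN3 and ISP8 thymocytes, with and without PKBα. All probe sets whose annotation holds 1 of these symbols were taken, which gave 14 of the 45101 probe sets of the array, and 9 of the 18195 genes that are named by a symbol of their own. *Cblb* and *Icos* have 3 probe sets each, *Cd28* has 2, and the other 6 genes have 1. The genes were chosen by a known result, the higher values of *Ctla4* in *PKBα*-/- cells, and by their relation to *Ctla4*. For this reason the comparison of the genotypes is given for these genes as a description without a test, whereas the comparison of ISP8 with DN3 cells, which was not used to choose them, was tested. Its average over both genotypes weighs each genotype the same. Within 1 genotype the change of *Ctla4* rests on values that led to the choice, and is a description there.

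DN3 cells are thymocytes without CD4 and CD8 at the stage at which the pre-TCR is assembled and tested. DN3 cells that pass this checkpoint become DN4 cells, which were not put on arrays. ISP8 cells come later: they carry CD8 alone, are still immature, and lead to the double positive stage. Cells were sorted from 4 littermate pairs of 1 *PKBα*-/- and 1 *PKBα*+/+ (wild-type) mouse, all from a C57Bl/6 backcross, and each of the 8 mice gave 1 DN3 and 1 ISP8 array, so that each of the 4 groups holds 4 mice. The pairs were female and 3 weeks old, male and 3 weeks old, male and 2 weeks old, and female and 5 weeks old, and values per group are listed in this order throughout. The deletion is carried by every cell of the *PKBα*-/- mice and is not confined to thymocytes. DN3 cells were sorted with CD25, CD44 and lineage antibodies, and ISP8 cells as CD8-positive cells without CD4 and CD3. The numbers in the array names run from 1 to 8 for ISP8 and from 9 to 16 for DN3 cells, so that subset, antibody panel and array order cannot be told apart. The authors estimated expression with GC-RMA, a background-corrected and normalized intensity on a linear scale. Values under 20 lie near background. Levels of different probe sets were not compared with each other, although those of some gene lists were summed.

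CD28 binds CD80 and CD86 on antigen-presenting cells and adds a costimulatory signal to that of the T cell receptor, partly through PI3K and PKB. CTLA4 binds the same ligands more tightly and restrains activation, and its loss in mice leads to fatal lymphoproliferation. ICOS is a further costimulatory member of the family that recruits PI3K, whereas PD-1 (*Pdcd1*) and BTLA carry inhibitory motifs that recruit phosphatases. LAG3 is a CD4-related inhibitory receptor, CD5 and CD6 are scavenger receptor family proteins that tune T cell receptor signals, and CBL-B is a ubiquitin ligase that makes T cell activation dependent on CD28. In the thymus, CD5 is known to appear on the cell surface with pre-TCR and TCR signals. *Cd28*, *Ctla4* and *Icos* are direct neighbours in this order on chromosome 1, and *Cd5* and *Cd6* are direct neighbours on chromosome 19.

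The promoters of 3 genes that changed between the subsets in opposite directions are shown, since the results turn on these genes. They are the 250 bases before the annotated start of the gene, from RefSeq on mouse build GRCm38.p6, written 5′ to 3′ in the direction of the gene. Capitals mark matches, on either strand, to the E-box letters CANNTG and the NFAT core letters GGAAA. *Ctla4* and *Cblb* fell and *Cd5* rose from DN3 to ISP8 cells.
Ctla4, chr1:60908775-60909024, plus strand: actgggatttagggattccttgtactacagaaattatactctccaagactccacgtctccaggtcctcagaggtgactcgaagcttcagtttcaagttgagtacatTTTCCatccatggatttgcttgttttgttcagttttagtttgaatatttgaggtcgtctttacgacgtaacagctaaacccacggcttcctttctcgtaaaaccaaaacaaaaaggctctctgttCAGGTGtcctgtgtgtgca
Cblb, chr16:52031299-52031548, plus strand: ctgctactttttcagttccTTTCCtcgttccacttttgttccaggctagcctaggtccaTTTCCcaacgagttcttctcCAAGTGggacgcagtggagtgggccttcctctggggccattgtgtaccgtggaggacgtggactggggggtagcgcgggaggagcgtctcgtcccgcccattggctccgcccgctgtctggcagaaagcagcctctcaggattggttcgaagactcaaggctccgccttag
Cd5, chr19:10738975-10739224, minus strand: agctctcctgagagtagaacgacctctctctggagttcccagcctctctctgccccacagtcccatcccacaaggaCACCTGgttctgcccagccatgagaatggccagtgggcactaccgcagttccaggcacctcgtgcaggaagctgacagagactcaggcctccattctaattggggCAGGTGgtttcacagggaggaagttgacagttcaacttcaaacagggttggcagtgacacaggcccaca
The *Ctla4* window holds 1 E-box and 1 NFAT core, that of *Cblb* holds 1 E-box and 2 NFAT cores, and that of *Cd5* holds 2 E-boxes, none of which overlap. Both motifs are common: of the 32851 promoter windows of this length, 66.2% hold an E-box and 55.6% an NFAT core. The RUNX letters TGTGGT and the FOXO letters GTAAACA, which 14.0% and 3.17% of all windows hold, were not found in these 3 windows. The windows of *Btla* (1 E-box, 1 RUNX match) and *Pdcd1* (2 NFAT cores) were the other 2 among the 5 of 9 genes with an entry. Letters alone do not show that a factor binds.

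The sorted cells carried the markers of their labels. *Il2ra*, which encodes CD25, read 8133 ± 1053 (SD, n = 4 mice) in wild-type DN3 and 185 ± 74.5 in wild-type ISP8 cells, and *Cd8a* read 208 ± 66.6 and 5152 ± 622. *Ptcra*, the pre-TCR α chain, fell by 1.74 on the log2 scale between the subsets (limma adjusted p = 8.65e-11). *Cd4* read 18.8 ± 18.2 and 60.5 ± 31.7, and *Foxp3*, the factor of regulatory T cells, stayed between group means of 28.2 and 49.2. *Akt1*, which encodes PKBα, ranged from 1198 to 2211 in wild-type and from 2.01 to 27.3 in *PKBα*-/- arrays on its brightest probe set. The median value of an array was 55.1 to 70.5.

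From DN3 to ISP8 cells, *Ctla4* and *Cblb* fell and *Cd28*, *Icos*, *Cd5* and *Cd6* rose, in wild-type and in *PKBα*-/- mice alike. ISP8 was compared with DN3 within each mouse on log2 values with limma, in each genotype and as an average over both. In the average, 10 of the 13 member probe sets tested passed the threshold of 0.05 after Benjamini-Hochberg adjustment, 6 higher and 4 lower in ISP8 cells, against 37.4% of all 36835 probe sets tested, 15.6% higher and 21.9% lower. In wild-type mice 9 of 13 passed, 5 higher and 4 lower, against 28.9% of all (11.6% higher, 17.3% lower), and in *PKBα*-/- mice 10 of 13, 6 higher and 4 lower, against 28.1% of all (11.9% higher, 16.2% lower). With 1 probe set per gene, 6 of the 9 genes passed in each of these comparisons. The counts within 1 genotype include *Ctla4*, whose change there is a description. The median change of the member probe sets in the average was 0.76 on the log2 scale, against -0.05 over all probe sets tested. In sorted cells measured in bulk, a change in the share of cells that hold a transcript and a change per cell cannot be told apart.

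**Figure D1:**
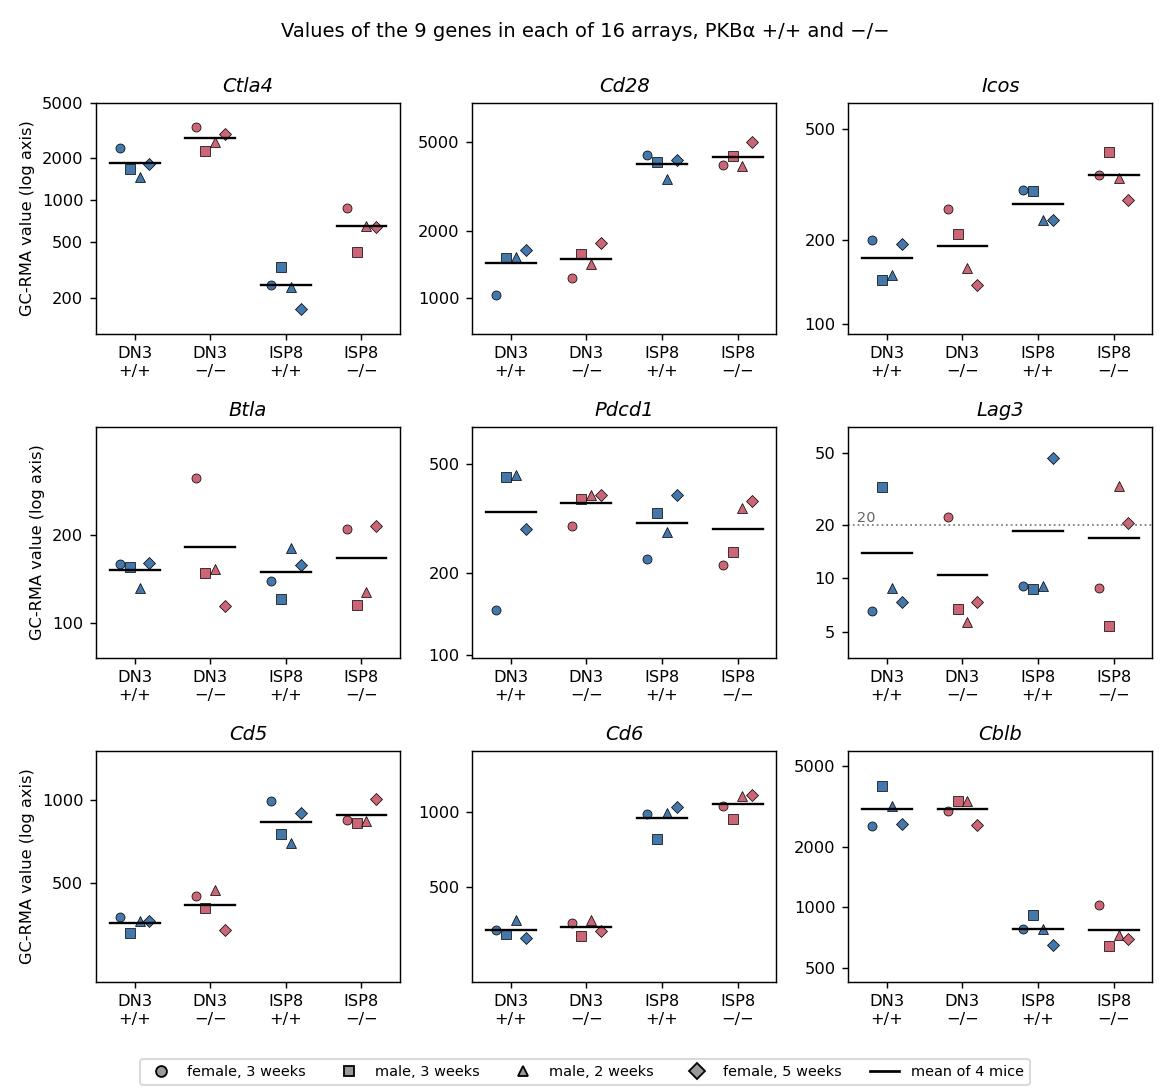
GC-RMA values (log axis) of the brightest probe set of each of the 9 genes in the 16 arrays, by subset and genotype; each symbol is 1 mouse, its shape marks the littermate pair, and black lines are the means of 4 mice. *Ctla4* spans 1463 to 3342 in the DN3 arrays but 166 to 884 in the ISP8 arrays, and *Lag3* is mostly under 20, the dotted line.

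Among the costimulatory receptors, *Cd28* rose 2.86-fold. In DN3 cells its brighter probe set read 1033, 1509.5, 1525 and 1648 in wild-type and 1229, 1569.7, 1422 and 1756 in *PKBα*-/- mice. In ISP8 cells it read 4365, 4060.3, 3424 and 4167 in wild-type and 3967, 4335, 3915 and 5013 in *PKBα*-/- mice. Every ISP8 value lay above every DN3 value, and the genotypes overlapped in both subsets. The change over both genotypes was 1.52 on the log2 scale, with a standard error (SE) of 0.09 (a 2.86-fold rise, adjusted p = 1.12e-09), higher in 8 of 8 mice. The second *Cd28* probe set changed by 1.45 (SE 0.09, adjusted p = 2.53e-09), with DN3 arrays at 637 to 1088 and ISP8 arrays at 1934 to 2853.

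*Icos*, the neighbour of *Ctla4* on the other side, rose less. Its brightest probe set read 201, 143, 150.2 and 194 in wild-type and 258, 209, 158 and 138 in *PKBα*-/- DN3 cells. The ISP8 values were 302, 299, 236 and 236 in wild-type and 342, 413, 334 and 279 in *PKBα*-/- mice. Within each genotype the subsets did not overlap, although the highest *PKBα*-/- DN3 value exceeded the lowest wild-type ISP8 values. Of all probe sets tested, 10.6% in wild-type and 11.4% in *PKBα*-/- mice lay higher in ISP8 cells without overlap. The change was 0.76 on the log2 scale (SE 0.14, adjusted p = 0.000491) over both genotypes, 0.87 (adjusted p = 0.00395) in *PKBα*-/- and 0.65 (adjusted p = 0.0424) in wild-type mice. In wild-type mice it no longer passed when the 3-week female, 3-week male or 2-week male mouse was left out (adjusted p = 0.105, 0.148 and 0.114). Of the other 2 probe sets, 1 changed by 0.93 (adjusted p = 0.00249; 0.84 and adjusted p = 0.0736 in wild-type mice), and the last lay at 3.62 to 81.5 and did not pass (0.79, adjusted p = 0.393).

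*Ctla4* showed the opposite course to *Cd28*, the receptor with which it shares its ligands. In wild-type mice its values were 2394, 1688, 1463 and 1836 in DN3 and 249, 331, 239 and 166 in ISP8 cells. In *PKBα*-/- mice they were 3342, 2277, 2628 and 3004 in DN3 and 884, 427, 657 and 648 in ISP8 cells. The lowest DN3 value of any mouse was above the highest ISP8 value of any mouse. *Ctla4* fell by 2.53 on the log2 scale over both genotypes (SE 0.12, a 5.78-fold drop, adjusted p = 1.06e-10), in 8 of 8 mice. Within each genotype, given as a description, the fall was 2.93 in wild-type (7.60-fold, SE 0.19) and 2.14 in *PKBα*-/- mice (4.4-fold, SE 0.12). The order of the group means was *PKBα*-/- DN3 (2813 ± 461), wild-type DN3 (1845 ± 397), *PKBα*-/- ISP8 (654 ± 186) and wild-type ISP8 (246 ± 67.7; SD, n = 4 mice). Of neighbours in this order, the 2 DN3 groups overlapped and the others did not.

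**Figure D2:**
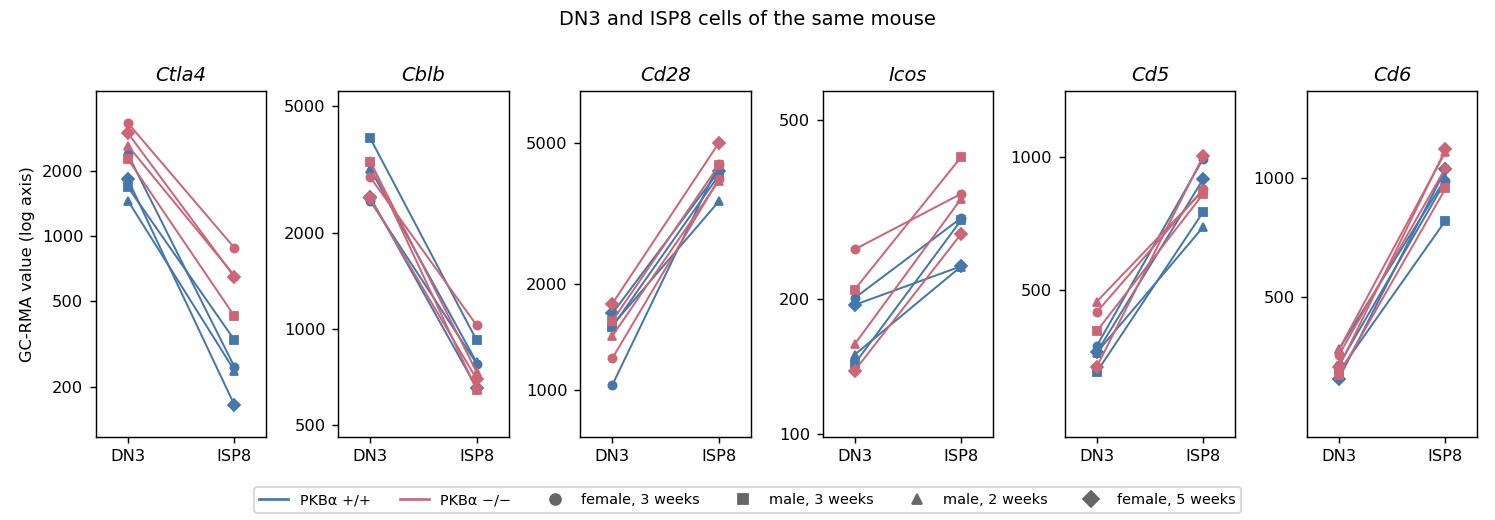
GC-RMA values (log axis) of the 6 genes that passed the test, on their brightest probe sets, with a line joining the DN3 and ISP8 cells of each of the 8 mice, coloured by genotype; symbols mark the littermate pair. *Ctla4* and *Cblb* fall and *Cd28*, *Icos*, *Cd5* and *Cd6* rise in 8 of 8 mice.

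The remaining inhibitory receptors did not pass the test between the subsets. *Btla* read 159, 156, 132 and 160.2 in wild-type DN3, 312, 148, 153 and 115 in *PKBα*-/- DN3, 139.6, 121, 181 and 158 in wild-type ISP8, and 210.3, 116, 128 and 215 in *PKBα*-/- ISP8 cells. All 4 groups overlapped, and the change of -0.05 had a 95% interval from -0.46 to 0.36. *Pdcd1*, which encodes PD-1, read 146, 448, 456 and 289 in wild-type DN3 and 225, 330.3, 282 and 384 in wild-type ISP8 cells. In *PKBα*-/- mice it read 297, 373, 386 and 386 in DN3 and 213, 238, 344 and 365 in ISP8 cells. Its change was -0.19 (95% interval -0.51 to 0.14, adjusted p = 0.386). *Lag3* reached 20 in 5 of 16 arrays, with values from 5.4 to 46.9, and its level in either subset cannot be told from background; it was tested in *PKBα*-/- mice only, where it did not pass (0.59, 95% interval -2.09 to 3.26).

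The neighbouring genes *Cd5* and *Cd6*, whose products dampen or tune T cell receptor signals, rose together. *Cd5* read 374, 327, 362 and 362 in wild-type and 446, 404, 471 and 335 in *PKBα*-/- DN3 cells, and 994, 753, 696 and 894 in wild-type and 848, 827, 842 and 1008 in *PKBα*-/- ISP8 cells. No ISP8 value was as low as a DN3 value. The rise was 1.16 on the log2 scale (SE 0.11, 2.23-fold, adjusted p = 2.79e-07). *Cd6* read 338, 325, 370.2 and 312 in wild-type and 358, 319, 369 and 334 in *PKBα*-/- DN3 cells, and 981, 780.0, 997 and 1050.4 in wild-type and 1059, 940.1, 1163 and 1179 in *PKBα*-/- ISP8 cells. It rose by 1.57 (SE 0.09, 2.97-fold, adjusted p = 1.98e-09), and the subsets again did not overlap. Among the 36835 probe sets of the average, 5.82% lay higher in every ISP8 than in every DN3 array and 8.85% lower.

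*Cblb*, the ubiquitin ligase, fell on all 3 of its probe sets. The brightest read 2529.9, 3981, 3191 and 2594 in wild-type and 2999, 3348, 3364 and 2569.8 in *PKBα*-/- DN3 cells. In ISP8 cells it read 778, 921, 785 and 653 in wild-type and 1027, 643, 733 and 695 in *PKBα*-/- mice. The subsets did not overlap and the genotypes did. The fall was 1.98 on the log2 scale on this probe set (SE 0.09, 3.94-fold, adjusted p = 9.84e-11), and the other 2 changed by -2.39 and -2.36 (adjusted p = 1.13e-10 and 7.57e-12). It was 3.88-fold lower in wild-type and 4.01-fold lower in *PKBα*-/- mice.

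**Figure D3:**
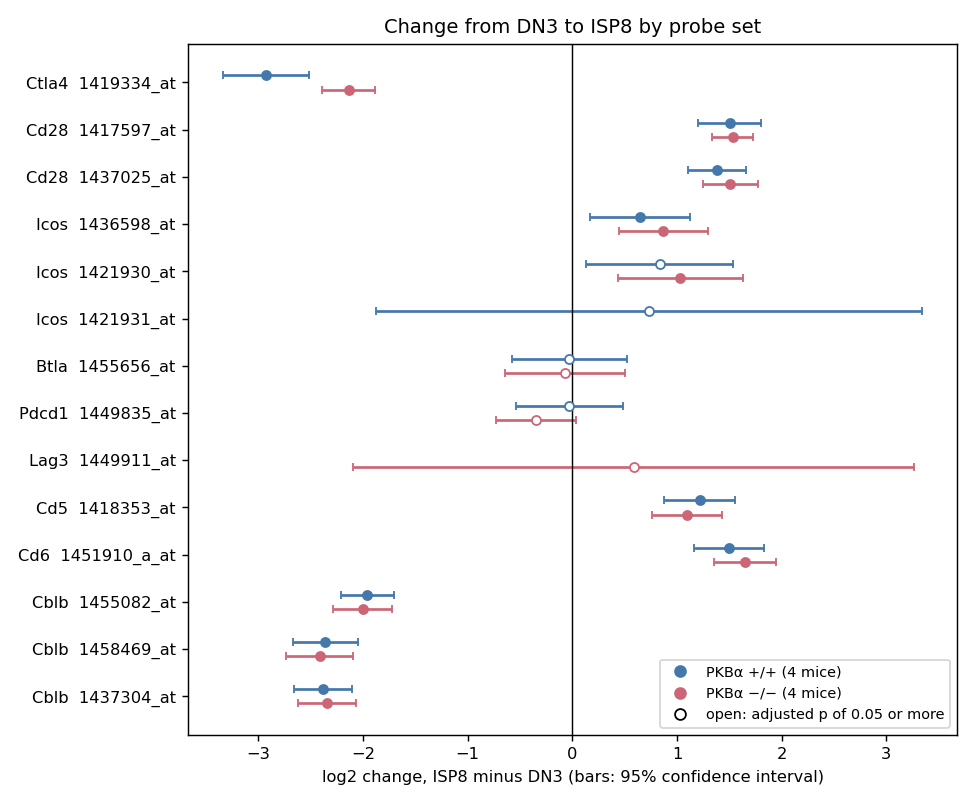
Change from DN3 to ISP8 cells on the log2 scale for each of the 14 member probe sets, with bars for the 95% confidence interval of limma over 4 mice per genotype; open symbols did not pass, and a missing symbol was not tested. *Ctla4* changed by -2.93 in wild-type and by -2.14 in *PKBα*-/- mice, while the intervals of the 2 genotypes lie closely together for *Cd28*, *Cd5*, *Cd6* and *Cblb*.

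Across the 16 arrays, the log2 values of the 3 *Cblb* probe sets were correlated with those of *Ctla4* at Pearson's r from 0.88 to 0.89, and those of *Cd28* (-0.87 and -0.82), *Cd5* (-0.83) and *Cd6* (-0.86) ran the opposite way. These coefficients are a description: the 16 arrays come from 8 mice, and the difference between the subsets dominates them. Of 13392 genes compared, *Sting1*, the adaptor of cytosolic DNA sensing, was most like *Ctla4* (r = 0.96), followed by *Cyp2j9* (0.95), *Tespa1* (0.95), *Rnf216* (0.95) and *Pink1* (0.94). *Sting1* read 908 ± 135 in wild-type DN3, 942 ± 101 in *PKBα*-/- DN3, 331 ± 32.2 in wild-type ISP8 and 460.2 ± 55.3 in *PKBα*-/- ISP8 cells (SD, n = 4 mice).

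Between littermates, *Ctla4* was higher in the *PKBα*-/- mouse in 4 of 4 pairs of both subsets. In DN3 cells the differences were 0.48, 0.43, 0.85 and 0.71 on the log2 scale, with a mean of 0.62 (SE 0.10, 1.53-fold), and the groups overlapped, since the wild-type female of 3 weeks (2394) exceeded the *PKBα*-/- male of 3 weeks (2277). In ISP8 cells they were 1.83, 0.37, 1.46 and 1.97, with a mean of 1.41 (SE 0.23, 2.65-fold), and the groups did not overlap, which held for 1.63% of all probe sets tested in that direction. The 3-week male pair differed least. These are the values that led to the choice of the genes and carry no test here. Values were higher in *PKBα*-/- mice in 4 of 4 pairs of both subsets for 0.546% of the 31143 probe sets tested in both.

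**Figure D4:**
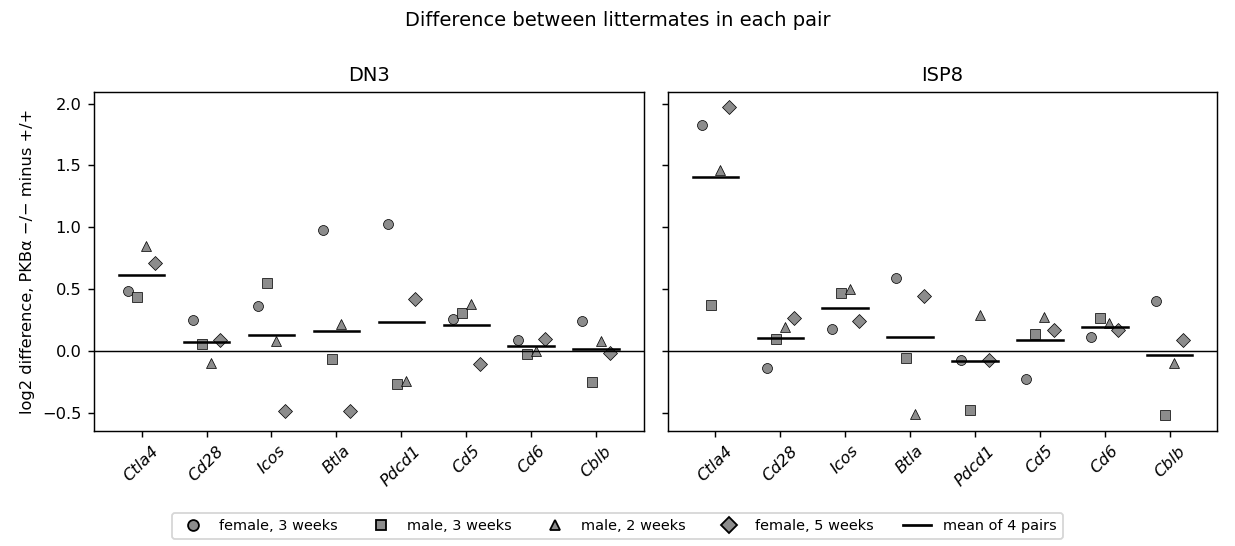
Log2 difference between *PKBα*-/- and wild-type littermates for the brightest probe set of 8 genes, in DN3 (left) and ISP8 cells (right); each symbol is 1 pair and black lines are means of 4 pairs. *Lag3*, near background in most arrays, is left out. *Ctla4* is above 0 in every pair, with lowest differences of 0.43 (DN3) and 0.37 (ISP8).

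The difference of *Ctla4* between littermates was greater in ISP8 than in DN3 cells in 3 of 4 pairs, by 0.79 on average (SE 0.23), and in the 3-week male pair the 2 were about the same (-0.06). This is the same quantity as the smaller fall of *Ctla4* in *PKBα*-/- mice. It is built from the values that led to the choice of the genes and is likewise a description. Over the whole array limma called no difference of this kind (0% of 36835 probe sets, with 1750 at an unadjusted p under 0.05).

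The other 8 genes differed less between the genotypes. On their brightest probe sets the mean log2 differences lay between 0.01 and 0.23 in DN3 and between -0.08 and 0.35 in ISP8 cells for the 7 genes tested. *Icos* in ISP8 cells was higher in the *PKBα*-/- mouse in 4 of 4 pairs, by 0.35 (SE 0.17), and *Cd6* in 4 of 4 pairs by 0.19 (SE 0.11). *Cd28* differed by 0.10 (3 of 4 pairs) on one and by 0.23 (4 of 4 pairs) on its other probe set in ISP8 cells. How many of all probe sets were higher in 4 of 4 pairs of ISP8 cells alone was not counted. The agreement of pairs for these genes is therefore a description and not a result. *Cblb*, which shared the fall of *Ctla4* between the subsets, differed by 0.01 in DN3 and -0.03 in ISP8 cells, with 2 of 4 pairs higher in either. In DN3 cells *Btla* and *Pdcd1* differed by 0.16 and 0.23 on average, with 0.97 and 1.02 in the 3-week female pair and 2 of 4 pairs higher for either gene.

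Transcripts of other cells and stages were set beside these values. The marker lists include genes that the study had already reported from these same arrays. *Notch3* and *Dtx1* were reported as higher in *PKBα*-/- ISP8 cells, and *Cd163l1* as higher in both subsets. *Ccr9* was reported as lower in DN3 cells and *H2-Aa* as lower in ISP8 cells. Genotype differences of these genes, and of the sums that hold them, are therefore a description. Each sum adds linear values, so bright genes weigh most. The summed level of 10 DN3-stage genes was higher in the *PKBα*-/- mouse in 4 of 4 ISP8 pairs, by 0.19 on the log2 scale on average, with sums of 28599 to 35034 in wild-type and 33811 to 37856 in *PKBα*-/- ISP8 arrays, and in 2 of 4 DN3 pairs. That of 7 genes of the ISP8 and double positive stage was lower in the *PKBα*-/- mouse in 4 of 4 ISP8 pairs (mean log2 ratio -0.09, 53529 to 60775 in wild-type and 49798 to 56730 in *PKBα*-/- arrays) and in 3 of 4 DN3 pairs (-0.07). *Dtx1*, a Notch target of the DN3-stage list, showed the greatest mean difference in ISP8 cells among those tested (0.85, 4 of 4 pairs), whereas *Ptcra* differed by 0.11 (2 of 4 pairs); no gene of the DN3-stage list passed in either subset. The summed level of 7 γδ T cell genes was higher in 4 of 4 DN3 pairs (0.25 on average, 4643 to 8703 in wild-type and 5952 to 9169 in *PKBα*-/- arrays), where the already reported *Cd163l1* differed by 1.29, and in 2 of 4 ISP8 pairs. That of 8 dendritic cell and macrophage genes was higher in 4 of 4 DN3 pairs (0.32, 773 to 1187 and 815 to 1476) and in 1 of 4 ISP8 pairs. The sum of 9 genes of mature and regulatory T cells was higher in 3 of 4 DN3 and 1 of 4 ISP8 pairs, and *Foxp3* read 42.5 ± 2.84 and 43.1 ± 9.18 in DN3 and 49.2 ± 13.9 and 28.2 ± 8.48 in ISP8 cells of wild-type and *PKBα*-/- mice. The ratio of the 3′ to the 5′ actin control, a sign of RNA integrity and amplification, was higher in the *PKBα*-/- mouse in 4 of 4 ISP8 pairs (0.24 on the log2 scale) and 1 of 4 DN3 pairs, and lower in ISP8 than in DN3 cells by 0.44 on average. The same ratio of the *Gapdh* control did not share this course. It was higher in the *PKBα*-/- mouse in 2 of 4 ISP8 pairs (0.10) and 2 of 4 DN3 pairs (-0.07), and changed by 0.03 from DN3 to ISP8 cells. The part of these genes and of the controls in the values of *Ctla4* was not tested.

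The ligands of the CD28 family belong mainly to antigen-presenting cells. Of 8 ligand genes 6 were tested between the subsets, and 2 fell: *Cd274*, which encodes the PD-1 ligand PD-L1, from 211 ± 32.1 to 111 ± 44.8 in wild-type mice (log2 change over both genotypes -0.95, adjusted p = 0.0018), and *Icosl*, the ligand of ICOS, from 86.8 ± 19.8 to 43.0 ± 26.5 (-1.27, adjusted p = 0.012). *Icosl* no longer passed without the 3-week female pair (adjusted p = 0.0503), which left 1 of the 2. Of all probe sets tested 21.9% fell. *Cd80* and *Cd86*, which encode the shared ligands of CD28 and CTLA4, had group means of 34.6 to 46.5 and 30.0 to 65.2 and did not pass (0.32 and 0.52).

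Of 23 other costimulatory and coinhibitory receptor genes 20 had a probe set and 19 were tested, and 2 rose and 8 fell from DN3 to ISP8 cells, with a median change of -0.21. Of all probe sets tested 15.6% rose and 21.9% fell. *Cd2*, an adhesion and costimulatory receptor, rose from 107 ± 46.2 to 1406 ± 274 in wild-type mice (3.93 over both genotypes, adjusted p = 2.14e-10), and *Ly9*, a SLAM family receptor, rose by 0.98 (adjusted p = 0.000145). *Cd48*, the ligand of CD2, fell from 2941 ± 417 to 1574 ± 305 (-1.05, adjusted p = 5.08e-09). *Cd200*, the gene next to *Btla* on chromosome 16, fell by 1.72 (adjusted p = 4.91e-07), the inhibitory collagen receptor *Lair1* fell by 1.81 (adjusted p = 5.96e-07), and *Tnfrsf18*, which encodes GITR, fell by 1.36 (adjusted p = 9.74e-07). Under quantile normalization 2 of the 10, *Tnfrsf4* and *Tnfrsf9*, no longer passed (adjusted p = 0.0537 and 0.0762), and both were also lost without the 5-week female pair (adjusted p = 0.0632 and 0.0836). *Tnfrsf4* was lost as well without the 3-week male pair (adjusted p = 0.0699). *Tnfrsf9* was lost as well without the 3-week female or the 2-week male pair (adjusted p = 0.196 and 0.192).

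Inside the cell, more brakes on T cell receptor signaling fell than rose, as was so over the whole array on the values as deposited. Of 29 genes tested 13 fell and 2 rose, with a median change of -0.51 against -0.05 over all probe sets. Of all 36835 probe sets tested 21.9% fell and 15.6% rose. The gene lists use the brightest probe set of each gene. With a floor of 100, 7510 of 21161 probe sets fell and 5466 rose. *Socs3*, an inhibitor of cytokine signals, fell from 3176 ± 624 to 134 ± 41.1 in wild-type mice (-4.39, adjusted p = 4.35e-12). *Pag1*, an adaptor that recruits the inhibitory kinase CSK, fell by 1.33 (adjusted p = 8.06e-11), *Tnfaip3*, which encodes the ubiquitin-editing enzyme A20, fell by 0.92 (adjusted p = 5.54e-08), and the phosphatase gene *Dusp5* fell by 1.18 (adjusted p = 5.96e-07). *Sla*, an adaptor that promotes the turnover of the T cell receptor complex, was an exception and rose by 1.65 (adjusted p = 1.3e-11), as did the adaptor *Dok2*, by 0.35 (adjusted p = 0.0388). *Dok2* no longer passed without the 3-week female, 3-week male or 2-week male pair (adjusted p = 0.240, 0.0592 and 0.148), which left *Sla* as the 1 brake that rose in those fits. Under quantile normalization 3 brakes rose and 17 fell, whereas 6879 of all 36835 probe sets rose and 6550 fell.

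**Figure D5:**
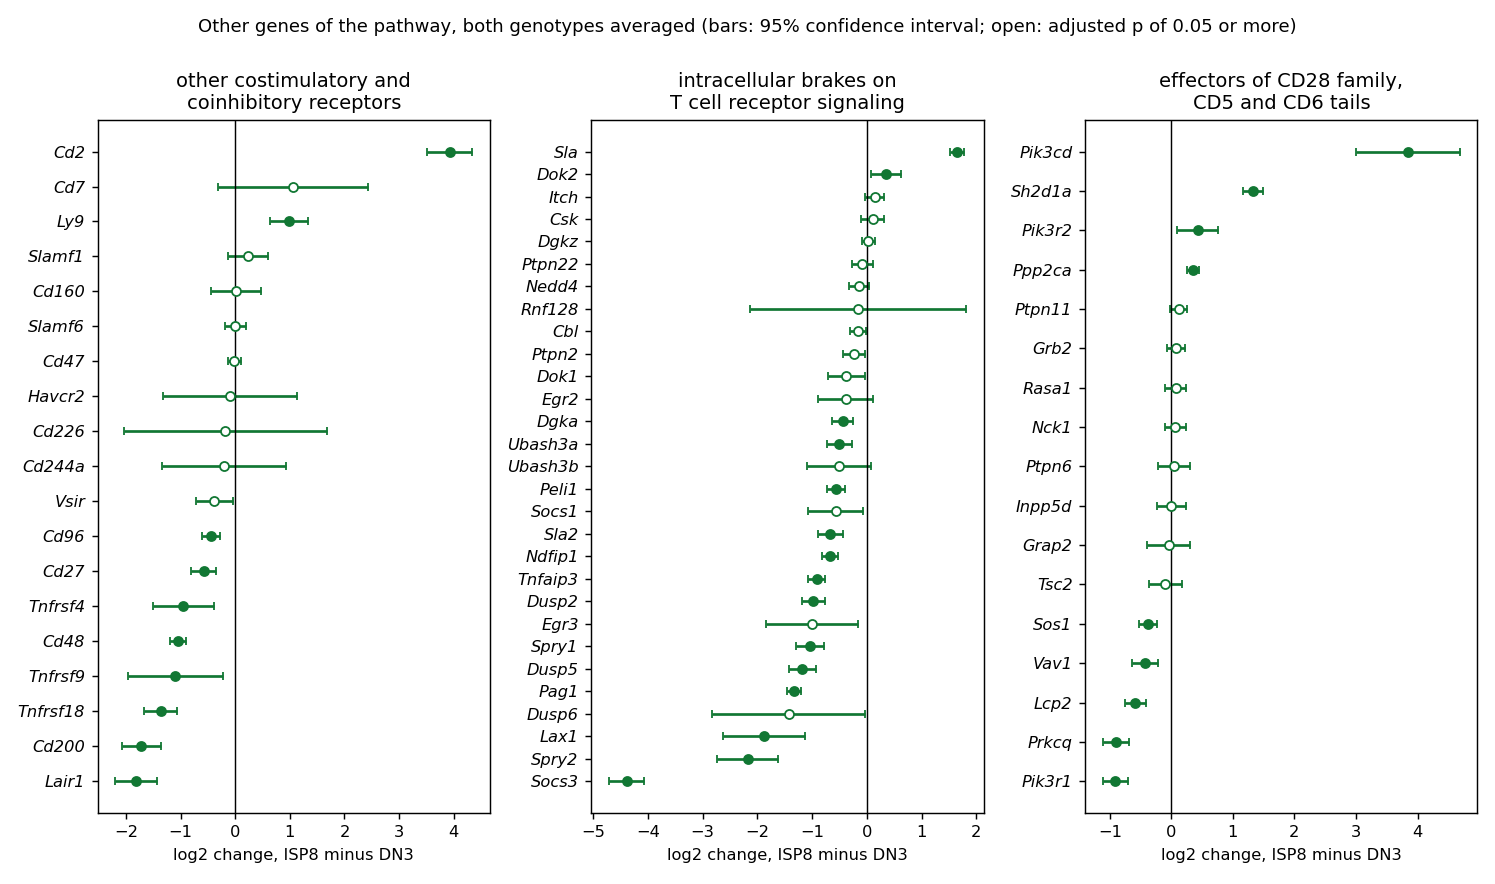
Change from DN3 to ISP8 cells averaged over both genotypes (log2 scale, 8 mice, bars for the 95% confidence interval) for other receptors, intracellular brakes and effectors that were tested; filled symbols passed. Of the brakes 13 fell and 2 rose, and of the other receptors 8 fell and 2 rose. Of all probe sets tested 21.9% fell and 15.6% rose.

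Of 17 effector genes that the tails of these receptors recruit, 4 rose and 5 fell, with a median change of 0.04. Of all probe sets tested 15.6% rose and 21.9% fell. Without the 3-week female or the 5-week female pair 3 effectors rose, as *Pik3r2* no longer passed (adjusted p = 0.247 and 0.178). *Sh2d1a*, the SLAM-associated adaptor, rose by 1.33 (adjusted p = 1.61e-09) and *Ppp2ca*, a catalytic subunit of the phosphatase PP2A that CTLA4 binds, by 0.35 (adjusted p = 2.61e-05). *Pik3r1*, a regulatory subunit of PI3K, fell by 0.91 (adjusted p = 1.01e-06) and *Prkcq*, the kinase PKCθ downstream of CD28, by 0.90 (adjusted p = 1.75e-06). The probe set of *Pik3cd* rose by 3.84 (adjusted p = 9.7e-07) but ranged from 535 to 20067 among DN3 arrays alone. *Ptpn6* and *Ptpn11*, the phosphatases SHP-1 and SHP-2 recruited by PD-1 and BTLA, changed by 0.04 and 0.12 and did not pass.

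CTLA4 reaches the cell surface by regulated traffic. Of 13 genes of this traffic 6 rose and 3 fell, against 15.6% higher and 21.9% lower of all probe sets tested. *Ap2m1* no longer passed without the 3-week female pair (adjusted p = 0.0633), and *Ap1m1* under quantile normalization (adjusted p = 0.146). Either left 5 that rose. *Trat1*, which encodes the adaptor TRIM that helps CTLA4 leave the Golgi, fell by 0.80 (adjusted p = 3.92e-06) and *Dnmbp*, the Cdc42 exchange factor TUBA, by 1.31 (adjusted p = 1.65e-08), whereas the GTPase genes *Arf1* and *Rab11a* rose by 0.81 and 0.38 (adjusted p = 2.26e-05 and 0.000181). *Lrba*, whose product protects CTLA4 from degradation in lysosomes, changed by -0.05 and did not pass. Of 5 transcription factors known to act on *Ctla4*, *Nfatc1* fell by 1.33 (adjusted p = 5.08e-09), *Nfatc2* by 1.61 (adjusted p = 1.97e-07) and *Foxo3* by 1.05 (adjusted p = 2.25e-08), and *Foxo1* rose by 0.28 (adjusted p = 0.034). *Foxo1* no longer passed without the 3-week female, 2-week male or 5-week female pair (adjusted p = 0.0790, 0.210 and 0.137). *Foxp3* did not pass (-0.24, adjusted p = 0.621). Between the genotypes no ligand, receptor, brake, effector, trafficking or transcription factor gene of these lists passed in either subset, where 0.0383% (DN3) and 0.0147% (ISP8) of all probe sets tested did.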

How the data were processed

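RNA of sorted DN3 and ISP8 cells was amplified in 2 cycles and hybridised to mouse genome 430 2.0 arrays. The authors estimated expression with GC-RMA in Refiner 3.1, and the deposited values are background-corrected, normalized intensities on a linear scale. Groups were taken from the sample labels. Probe sets were named from the platform annotation: 34958 have 1 symbol, 932 several and 9211 none. The lead probe set of a gene has the highest mean.

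Log2 values were fitted with limma 3.58.1 (R 4.3.3), with a mean-variance trend. Probe sets above 20 in at least 1 of 2 matched arrays in at least 3 pairs were tested (33962 to 36835 in the 6 comparisons), with Benjamini-Hochberg adjustment over all of them. Genotypes were compared within littermate pairs and subsets within mice. Over 19223 probe sets with a mean above 100, deviations of littermates were correlated at 0.430 to 0.487 (DN3) and 0.146 to 0.297 (ISP8), and those of the same mouse at 0.229 to 0.384. The fit was tested on simulated data. The number of mice limits the precision.

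The members and the gene lists were chosen with earlier results of these data known. Named were all members, at most 4 passing genes per list and direction, and the 5 genes most like *Ctla4*. Sums and counts of natural killer, B and erythroid cell markers are given in the closing section. Alternatives were the filter, an added constant of 20, quantile normalization, no block, robust moderation, leaving out each pair, the mean over a gene's probe sets, and the methods' paired test. Promoters and neighbours came from RefSeq (GRCm38.p6).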

Additional observations from a re-analysis of the deposited data

Results flagged for a closer look

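Of 56 groups of 4 mice (14 probe sets in 4 groups), 7 held a sample set apart from the other 3. Chance gives about 1 in 20 groups for normally distributed values. The values here are linear intensities, some near background, so an excess over that rate cannot be read from this count. *Lag3* accounted for 3 of the 7 groups, with a highest value of 32.5 in wild-type DN3, 22.0 in *PKBα*-/- DN3 and 46.9 in wild-type ISP8 cells beside values under 10 in the other mice of each group. The dimmest *Icos* probe set read 55.9 in 1 wild-type DN3 sample and at most 7.97 in the other 3. *Btla* was lowest at 132 in wild-type DN3 cells, and *Pdcd1* was lowest at 297 in *PKBα*-/- DN3 cells. *Cd5* was highest at 1008 in *PKBα*-/- ISP8 cells. No *Ctla4*, *Cd28*, *Cd6* or *Cblb* group was set apart in this way.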

How the results depend on the processing

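With 1 probe set per gene, 6 members passed between the subsets in *PKBα*-/- mice and in the average over genotypes under every alternative run, and 5 to 6 in wild-type mice, where *Icos* lost its call without a filter (adjusted p = 0.0573), with the mean over its probe sets (0.233) and without the 3-week female, the 3-week male or the 2-week male pair. Quantile normalization moved the median change of all probe sets in wild-type mice from -0.09 to 0.03. It turned the sign of *Btla* (0.26 in wild-type, 0.14 in *PKBα*-/- mice, 0.20 in the average) and *Pdcd1* (0.24 in wild-type mice, 0.052 in the average), neither of which passed. Leaving out 1 pair gave *Btla* -0.19 to 0.084, -0.40 to 0.093 and -0.22 to 0.059 in the same 3 comparisons, *Pdcd1* -0.24 to 0.20 in wild-type mice and *Lag3* -0.060 to 1.22 in *PKBα*-/- mice. For the difference of the genotype effect between subsets it gave *Cd28* -0.059 to 0.17, *Btla* -0.37 to 0.18, *Cd5* -0.25 to 0.00010 and *Cblb* -0.11 to 0.028. The cause was not tested.

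Between genotypes, 13 probe sets passed in DN3 cells, 8 without a filter, 27 with the added constant, 1 with no replicate block and 12 to 40 without 1 pair, and 5 passed in ISP8 cells, 3 without a filter, 1 with a floor of 100, 2 with no replicate block and 1 to 12 without 1 pair. The *Ctla4* difference, given as a description, was 0.62 in DN3 cells. With complete pairs and 1 probe set, the filter, the block, gene means and the methods' paired comparison cannot move this mean. With no replicate block its SE was 0.16, against 0.10 with the block. The difference was 0.61 with the added constant and 0.65 under quantile normalization. When 1 pair was left out the difference was 0.54 to 0.68 in DN3 cells (0.59 without the 5-week female pair) and 1.22 to 1.75 in ISP8 cells, highest without the 3-week male pair. With no replicate block no member lost a call between the subsets.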

Other observations

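Other marker lists gave these values. Of all 36835 probe sets tested between the subsets 15.6% rose and 21.9% fell. Under quantile normalization 6879 rose and 6550 fell. Of 7 genes of natural killer and innate lymphoid cells, 4 rose and 1 fell from DN3 to ISP8 cells. Without the 5-week female pair 2 rose, since *Tbx21* and *Il18r1* no longer passed (limma adjusted p = 0.0627 and 0.309). *Klrd1*, a receptor subunit of natural killer cells, rose by 3.61, and *Nkg7* of cytotoxic granules fell by 3.25. The summed level of these genes was lower in the *PKBα*-/- mouse in 4 of 4 ISP8 pairs (mean log2 ratio -0.22) and higher in 3 of 4 DN3 pairs (0.14). The brightest genes weigh most in this sum. The median log2 change was -0.44 over the 7 genes tested in ISP8 cells. Over the 4 tested in DN3 cells it was -0.41, opposite in sign to the sum. Of 6 B cell genes 1 rose and 1 fell, and their sum was lower in the *PKBα*-/- mouse in 4 of 4 DN3 pairs (-0.11) and 3 of 4 ISP8 pairs (-0.25). Of 2 erythroid genes tested none passed by limma, and the erythroid sum was higher in the *PKBα*-/- mouse in 2 of 4 DN3 (-0.15) and 1 of 4 ISP8 pairs (-0.14).

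Of 8 dendritic cell and macrophage genes 4 rose and 3 fell. *Siglech* no longer passed when any 1 pair was left out (adjusted p = 0.0575 to 0.0759). Without the 3-week female or the 3-week male pair 2 rose, as *Flt3* was lost too (0.213 and 0.176). Without the 2-week male or the 5-week female pair 3 rose. Under quantile normalization 2 fell, as *Adgre1* no longer passed (0.0698), and it was also lost without the 3-week female, 2-week male or 5-week female pair (0.0506, 0.0571 and 0.152). Of 6 γδ T cell genes 5 fell. Of 9 genes of mature and regulatory T cells 1 fell, *Il10*, which no longer passed without the 3-week female or the 2-week male pair (0.0969 and 0.0620). Of the stage markers, 9 of 10 DN3 genes fell, and 5 of 7 genes of the ISP8 and double positive stage rose and 1 fell. Of those that rose, *Tfrc* no longer passed without the 3-week male or the 2-week male pair (adjusted p = 0.0719 and 0.163). Under quantile normalization 4 rose, as *Tfrc* changed by 0.07 (adjusted p = 0.488).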
